A study of Mus musculus with 2 samples.

Results

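Tcf1 binding was described at the genes of 8 inhibitory receptors of T cells, Pdcd1, Ctla4, Btla, Lag3, Havcr2, Tigit, Cd160 and Cd244, and at the genes of the nuclear factors Tox and Tox2. The rule that chose the 10 genes used their names and no binding value, but the choice was made with earlier results of these data known. A peak was counted for a gene when its summit, the position of highest coverage, lay in the gene body or within 50 kb of either end. By this rule 36 of the 22286 deposited peaks fell at the 10 genes. Of these, 35 were high-confidence peaks, meaning that their fold enrichment was at least 4 with p under 1e-05 and q under 0.05. Genome-wide, 19042 deposited peaks (85.4%) passed the same limits, so the 35 of 36 here is read against that share.

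Tcf1, encoded by Tcf7, is a DNA-binding protein of the high mobility group (HMG) box family that is abundant in naive T cells. Inhibitory receptors are mostly low on naive CD8+ T cells, rise after antigen stimulation, and stay high on exhausted T cells in chronic infection and tumors. Btla differs from most of them in being carried by naive T cells. Tox is an HMG-box nuclear factor required for the exhausted state, and Tox2 is its close relative.

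The study mapped Tcf1 in naive CD8+ T cells sorted from mouse spleen, by chromatin immunoprecipitation with a rabbit antiserum raised against the full-length protein. There were 2 libraries, 1 from wild-type (WT) cells and 1 from Tcf1-deficient cells, and the deposited peaks were called in WT over the Tcf1-deficient control. The sort phenotype of the labels, shared by both libraries, was GFP+ TCRbeta+ CD62Lhi CD44lo-med CD8+. The sources differ on the control: its title gives Tcf1-deficient, its genotype field gives Tcf1-/-Lef1-/-, the series text describes hCD2-Cre with floxed Tcf1 and Lef1 alleles and a Rosa26 GFP reporter, and the methods describe Tcf7 fl/fl mice carrying Cd4-Cre. Both of these Cre drivers act in T cells, and CD4-Cre starts in the thymus. The labels give no age or sex.

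The WT library kept 36938606 fragments and the control library kept 27625250 fragments after removal of duplicates, a ratio of 1.34. With 1 library a group there was no replicate check, and the deposited p compares these 2 libraries, not the genotypes. Pileup counts the WT fragments that cover a summit. Fold enrichment is the pileup plus 1 over the level expected from the control plus 1. The control level was at the genome-wide minimum of 5.42 fragments at 33 of the 35 peaks (94.3%), against 86.3% of all high-confidence peaks, and a pileup of 25 was then needed for a fold enrichment of 4. The intervals given for pileups are exact Poisson 95% intervals, and those for shares are Wilson 95% intervals. Both cover counting error only and not variation between libraries, since each group held 1 library. As a look at the labelled cell type through binding and not RNA, 8 of 9 T cell marker genes had a peak within 1 kb of a start site, Thy1 being the exception. The same held for 0 of 5 B cell, 1 of 4 myeloid (Itgam) and 0 of 3 NK cell marker genes, and for 32.8% of all protein-coding genes. A peak anywhere in the window was found at 9 of 9 T cell, 4 of 5 B cell, 3 of 4 myeloid and 1 of 3 NK cell marker genes (Klrb1c, with 8 peaks), against 66.5% of all genes. The windows of Cd3d, Cd3e and Cd3g, all on chromosome 9, had the same strongest fold enrichment of 33.4, so the T cell counts may share peaks.

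Sequences were read at summits from the mm9 genome, on the plus strand, because Tcf/Lef proteins are known to bind the letters ATCAAAG. Within 100 bp of a summit, this core stood at 5 of the 35 peaks, 2 at Ctla4, 1 at Btla and 2 at Tox2. The first-base variant TTCAAAG stood at 3 peaks, 1 each at Ctla4, Havcr2 and Cd160. The 6 windows printed first, of 101 bases and centred on the summit, hold every core and variant match of these peaks that lies outside untranslated regions. Capitals mark the core or the variant, read on either strand (CTTTGAT and CTTTGAA are their reverse complements), and in Cd160 also an ETS match (ACTTCCG) and a Runx match (AACCACA).
Ctla4, 4.0 kb upstream of the outermost start (a processed transcript), chr1:60939798-60939898: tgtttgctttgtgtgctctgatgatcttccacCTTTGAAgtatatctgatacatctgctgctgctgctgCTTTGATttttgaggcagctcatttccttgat
Btla, 8.66 kb past the gene end, chr16:45261613-45261713: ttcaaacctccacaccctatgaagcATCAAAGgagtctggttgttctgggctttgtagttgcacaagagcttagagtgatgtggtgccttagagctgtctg
Tox2, 38.5 kb upstream, chr2:162990293-162990393: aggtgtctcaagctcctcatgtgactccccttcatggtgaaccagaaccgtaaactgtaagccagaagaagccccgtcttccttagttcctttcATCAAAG
Tox2, intron 2, chr2:163079281-163079381: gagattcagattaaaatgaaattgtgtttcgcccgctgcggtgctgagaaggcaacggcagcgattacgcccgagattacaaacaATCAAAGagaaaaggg
Havcr2, 49.8 kb upstream, chr11:46218637-46218737: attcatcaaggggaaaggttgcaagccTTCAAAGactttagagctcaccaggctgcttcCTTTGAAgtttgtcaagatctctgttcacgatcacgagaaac
Cd160, inner start site, chr3:96618480-96618580: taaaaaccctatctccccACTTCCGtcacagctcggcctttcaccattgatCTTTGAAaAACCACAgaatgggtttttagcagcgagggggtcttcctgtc
The core at the Ctla4 start site lies in a 5′ untranslated exon and is shown as a 27-base site with the core in capitals.
Ctla4 start site, chr1:60965885-60965911: cgtaccttggATCAAAGctgtctatat
The promoter peaks of Tigit, the strongest of all 35, and of Btla are shown because both hold a Runx match (capitals, TGTGGTT or its reverse complement AACCACA) and neither holds the Tcf/Lef core near its summit.
Tigit promoter, chr16:43664350-43664450: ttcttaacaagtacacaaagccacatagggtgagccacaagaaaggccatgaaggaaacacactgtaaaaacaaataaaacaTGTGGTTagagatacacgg
Btla promoter, chr16:45224189-45224289: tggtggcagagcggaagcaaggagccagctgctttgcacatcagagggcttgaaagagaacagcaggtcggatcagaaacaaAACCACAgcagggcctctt

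Every one of the 10 genes had at least 1 high-confidence summit in its window, against 66.5% of 22350 protein-coding genes of the numbered chromosomes and X. The number ran from 1 at Cd244 to 7 at Tox, with a median of 3, where the median protein-coding gene had 1 (interquartile range 0 to 3). The median window was 127 kb for the 10 genes and 115 kb for all genes, but the windows of Tox (405 kb) and Tox2 (221 kb) were longer. Per 100 kb of window, the 10 genes had a median of 2.32 peaks and all genes 0.973. The range was from 0.793 at Cd244 to 3.88 at Ctla4. The plot of peaks per gene sets each gene in the distribution of all genes.

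**Figure D1:**
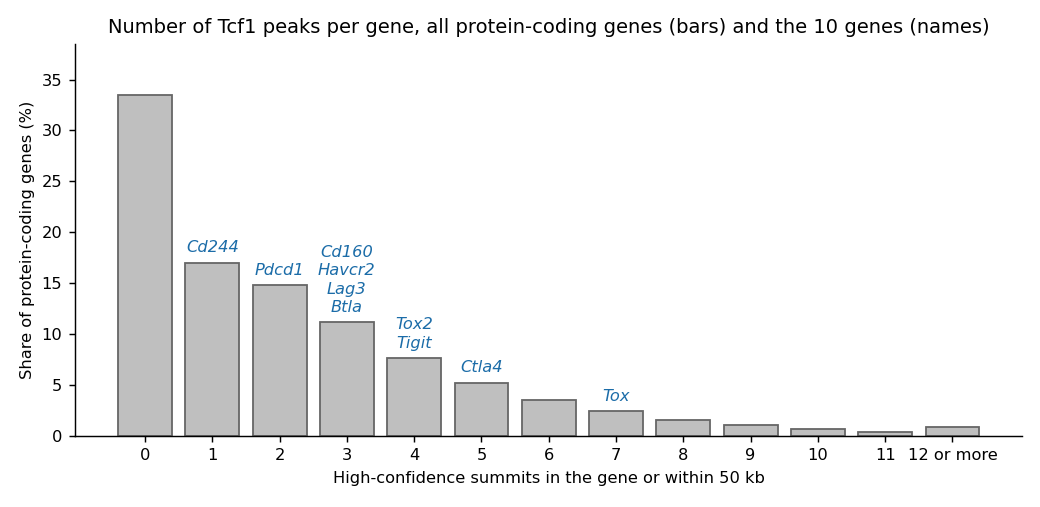
High-confidence summits in the gene body or within 50 kb, for the 10 genes beside the distribution over 22350 protein-coding genes. The median is 3 for the 10 genes and 1 for all genes, and Tox, with 7, exceeded 92.9% of all genes while Cd244, with 1, exceeded 33.5%.

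A peak at the gene's own start site was less general. A summit lay within 1 kb of an annotated start site at 5 of the 10 genes, Ctla4, Btla, Tigit, Cd160 and Tox, against 32.8% of all protein-coding genes. Pdcd1, Lag3, Havcr2, Cd244 and Tox2 had none there. A summit lay in the gene body at 5 of 10 genes (Ctla4, Btla, Cd160, Tox and Tox2), against 25.0% of all genes. The nearest start site of a protein-coding gene was the gene's own for 26 of the 35 peaks, and 9 peaks were nearer to another gene. By this measure 8 of 10 genes had a peak of their own, against 41.5% of all genes, and Havcr2 and Cd244 had none. The map of the loci shows these positions.

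**Figure D2:**
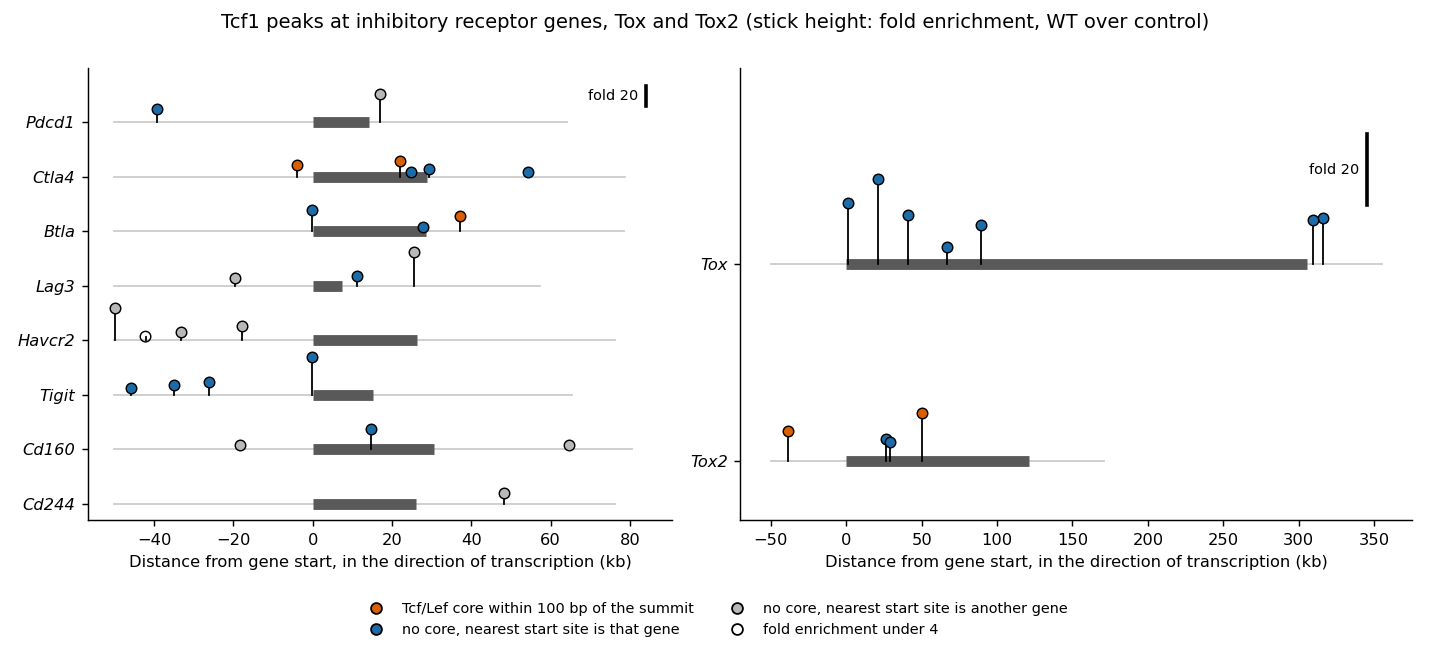
Summits at each of the 10 genes by distance in kb along the window, with the gene body as a thick bar and stick height as fold enrichment (scale bar 20, drawn larger at the right). Summits with the Tcf/Lef core (orange) lie at Ctla4, Btla and Tox2, and the summits at Havcr2 and Cd244 are all nearer to another gene (grey) or under the fold minimum (open).

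Among the receptors of the CD28 family, Pdcd1 encodes PD-1, which recruits phosphatases to dampen antigen receptor signals. Pdcd1 (ENSMUSG00000026285.6, chr1:95934884-95949130, minus strand) had 2 peaks, on opposite sides of the gene and none within it. The stronger, chr1:95931515-95932549, had a pileup of 178 fragments (153 to 206) in WT over a control level of 5.42. Its fold enrichment of 27.9 ranked 702 of 19042 high-confidence peaks. The summit lay 2.80 kb past the 3′ end of the gene, and 94.2% of protein-coding genes had a lower strongest fold enrichment. The start site nearest to this peak was that of Neu4, 13.9 kb away. The other Pdcd1 peak, chr1:95988225-95988804, had a pileup of 87 (69.7 to 107) and a fold enrichment of 13.7, 39.4 kb upstream of the start site.

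Ctla4 encodes the receptor that competes with CD28 for CD80 and CD86. Ctla4 (ENSMUSG00000026011.6, chr1:60943844-60972676, plus strand) had 5 peaks and the highest density of the 10 genes. Its strongest peak, chr1:60965582-60966202, had a pileup of 103 (84.1 to 125) over a control level of 5.42, a fold enrichment of 16.2. The annotation gives Ctla4 several start sites, and this summit lay 35 bp inside the transcript that starts at 60965869. It lay 111 bp upstream of another start at 60966015 and 22.1 kb downstream of the outermost start of the gene. The core printed for this start site was centred 6 bp from the summit, the closest of the 5 core matches. The next Ctla4 peak, chr1:60939613-60940033, lay 4.0 kb upstream of the outermost start, which is that of a processed transcript and not of a protein-coding one, with a pileup of 74 (58.1 to 92.9) and a fold enrichment of 11.7. The protein-coding Ctla4 starts lay 26021 and 26167 bp downstream of its summit. It held both the core, 22 bp from the summit, and the first-base variant, 15 bp from the summit. The remaining 3 peaks, 1 in an intron and 2 past the 3′ end, had fold enrichments of 4.52 to 7.63.

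Btla encodes a receptor for HVEM, the product of Tnfrsf14. Btla (ENSMUSG00000052013.7, chr16:45224428-45253008, plus strand) had 3 peaks. The promoter peak, chr16:45223671-45225194, had a pileup of 135 (113 to 160) over 5.42, or 21.2-fold, with its summit 189 bp upstream of the start site. At 1524 bp it was the widest of the 35 peaks, whose median width was 649 bp. A second strong peak, chr16:45261378-45261946, lay 8.66 kb past the 3′ end with a pileup of 99 (80.5 to 121) and a fold enrichment of 15.6. It held the core 22 bp from the summit. The pileup intervals of these Btla peaks overlap. The third peak, in an untranslated exon, had a pileup of 26 (17.0 to 38.1) and a fold enrichment of 4.21.

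Of the other immunoglobulin superfamily receptors, Tigit had the strongest peak of all. Tigit binds PVR and competes for it with the activating receptor CD226. Tigit (ENSMUSG00000071552.4, chr16:43648974-43664297, minus strand) had 4 peaks. At the promoter peak, chr16:43664030-43664845, 243 WT fragments (213 to 276) stood over a control level of 5.42. The fold enrichment was 38.0, rank 285 of 19042, and 97.5% of protein-coding genes had a lower strongest value. Its summit lay 103 bp upstream of the start site, and the Runx match printed for it was centred 35 bp from the summit. The other 3 Tigit peaks lay 26.1, 34.9 and 45.8 kb upstream with fold enrichments of 12.6, 10.3 and 7.17.

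Lag3 encodes a receptor for MHC class II that is built like CD4, and its gene lies beside Cd4. Lag3 (ENSMUSG00000030124.2, chr6:124854379-124861723, minus strand) is the shortest of the 10 genes, and its window held 7 other protein-coding genes. Its strongest peak, chr6:124835104-124836569, had a pileup of 218 (190 to 249) and a fold enrichment of 34.1. That peak lay in an intron of Cd4, 2.04 kb from the Cd4 start site and 18.2 kb past the end of Lag3. The peak nearest to Lag3 itself, chr6:124850462-124850912, lay 3.72 kb past its 3′ end with a pileup of 60 (45.8 to 77.2) and a fold enrichment of 9.50. The intervals of those pileups do not overlap. The third peak lay at the start site of Mlf2 with a fold enrichment of 7.48. Counting only peaks nearest to it, Lag3 had 1 peak, and 83.1% of genes had a lower strongest value by that count.

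Havcr2 encodes Tim-3, an inhibitory receptor abundant on exhausted T cells. Havcr2 (ENSMUSG00000020399.8, chr11:46268437-46294757, plus strand) had 3 high-confidence peaks, all upstream and all nearer to another gene. The strongest, chr11:46218293-46218973, had a pileup of 210 (183 to 240) and a fold enrichment of 32.9. It lay 49.8 kb upstream, just inside the 50-kb limit, in a coding exon of Fam71b and 455 bp from the Fam71b start site. It held the variant TTCAAAG at both sides of the summit, 20 bp and 12 bp away. A second peak, at the start site of Med7, had a pileup of 110 (90.4 to 133) over a control level of 6.69, which gave 14.4-fold enrichment. The third had a pileup of 54 (40.6 to 70.5) and a fold enrichment of 8.57. The deposited peak at chr11:46226135-46226539 was the single one of the 36 under the limit. Its pileup of 30 (20.2 to 42.8) over a control level of 7.35 gave a fold enrichment of 3.71.

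Cd160 encodes a membrane-anchored receptor that, like Btla, binds HVEM. Cd160 (ENSMUSG00000038304.8, chr3:96602686-96633274, minus strand) had 1 strong and 2 weak peaks. The strong peak, chr3:96618251-96618967, had a pileup of 144 (121 to 170) over a control level of 6.02, a fold enrichment of 20.7. It lay in intron 1 of the longest transcript and 86 bp upstream of an inner start site at 96618444. Its window held the variant TTCAAAG, a Runx match and an ETS match, all within 29 bp of the summit. The 2 other peaks lay in introns of Rnf115 and Pdzk1 with fold enrichments of 4.05 and 4.67. The first of them, with a pileup of 25 (16.2 to 36.9), stood just inside the limit of 4, opposite the Havcr2 peak of 3.71.

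Cd244 encodes a receptor of the SLAM family that binds CD48, and it had the fewest peaks and the lowest strongest fold enrichment of the 10 genes. Cd244 (ENSMUSG00000004709.8, chr1:173489324-173515449, plus strand) had 1 peak, chr1:173536924-173537796, with a pileup of 71 (55.5 to 89.6) and a fold enrichment of 11.2. That peak lay 22.1 kb past the 3′ end of Cd244 and 7 bp from a start site of Ly9, another SLAM family gene.

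Tox (ENSMUSG00000041272.5, chr4:6613500-6918704, minus strand) is 305 kb long and had 7 peaks, 5 of them in the gene body. Its density of 1.73 peaks per 100 kb exceeded that of 61.0% of genes, over a window of 405 kb. The strongest peak, chr4:6897482-6898130, lay in intron 1, 20.9 kb from the outermost start site (that of a transcript annotated as a retained intron), with a pileup of 152 (129 to 178) over a control level of 5.42. Its fold enrichment was 23.8, rank 1030. The peak at the start of the gene, chr4:6917389-6918569, had a pileup of 109 (89.5 to 132) and a fold enrichment of 17.1, and its summit lay 122 bp from the protein-coding start at 6917946. The pileup intervals of these Tox peaks overlap by little. The 4 summits in intron 1, which is 148 kb long, lay 20.9, 41.1, 66.7 and 89.2 kb from the start with fold enrichments of 23.8, 13.7, 4.83 and 10.9. Introns 2 to 8 of the longest transcript held 0 summits. The final 2 summits lay 4.18 and 11.2 kb past the 3′ end with fold enrichments of 12.3 and 12.9, after a stretch of 220 kb with no summit.

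Tox2 (ENSMUSG00000074607.5, chr2:163028861-163149906, plus strand) had 4 peaks and, unlike Tox, none at a start site. The strongest, chr2:163078876-163079687, lay in intron 2, 50.5 kb into the gene, with a pileup of 85 (67.9 to 105) over a control level of 5.42, which gave 13.4-fold enrichment. The peak 38.5 kb upstream, chr2:162990078-162990890, had a pileup of 54 (40.6 to 70.5) and a fold enrichment of 8.57. These are the Tox2 peaks that hold the core, 38 bp and 47 bp from the summit. The 2 peaks in intron 1, which is 44.5 kb long, had fold enrichments of 6.08 and 5.45.

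Ordered by strongest peak, the genes ran Tigit, Lag3, Havcr2, Pdcd1, Tox, Btla, Cd160, Ctla4, Tox2 and Cd244, with fold enrichments of 38.0, 34.1, 32.9, 27.9, 23.8, 21.2, 20.7, 16.2, 13.4 and 11.2. The pileup intervals overlapped for 9 of the 9 neighbouring pairs, so these intervals do not separate neighbours in this order. Tigit and Cd244, at the ends, did not overlap (213 to 276 against 55.5 to 89.6). The median strongest fold enrichment was 22.5 for the 10 genes. It was 6.86 for all protein-coding genes, with the 7481 genes without a peak counted at 0, and 10.1 for the genes with a peak. Counting only peaks nearest to the gene itself, with Havcr2 and Cd244 at 0, the median of the 10 genes was 15.0 and that of all protein-coding genes was 0. The places of Lag3, Havcr2, Pdcd1 and Cd244 rest on peaks nearer to the start sites of Cd4, Fam71b, Neu4 and Ly9. The plot of pileup by peak shows these values with their intervals.

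**Figure D3:**
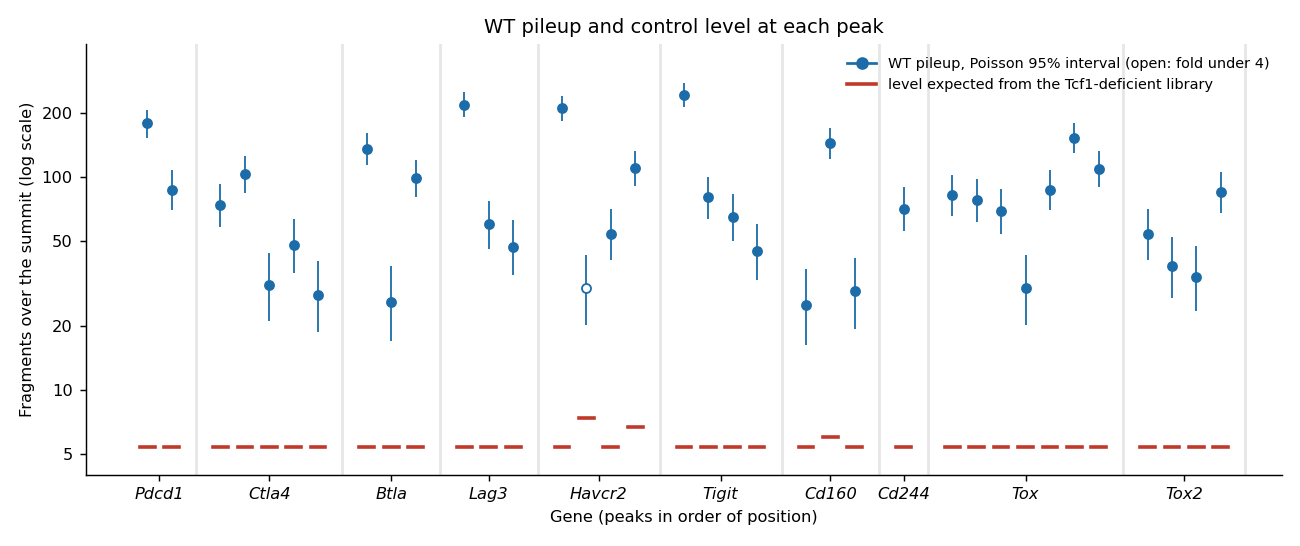
WT pileup in fragments at each peak of the 10 genes with exact Poisson 95% intervals. The strongest peaks run from 71 fragments at Cd244 to 243 at Tigit, and the intervals of neighbouring genes in that order overlap.

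The 35 peaks had a median fold enrichment of 11.7, with an interquartile range of 7.32 to 15.9, beside 6.86 and 5.14 to 10.6 over all 19042 high-confidence peaks. The median pileup was 74 against 44 fragments and the median width was 649 against 484 bp. Promoter peaks, within 1 kb of any start site, made up 9 of 35 (25.7%, 14.2 to 42.1) against 39.6% of all peaks. Of the 9, 5 lay at start sites of the 10 genes and 4 at those of Mlf2, Fam71b, Med7 and Ly9. Gene bodies held 12 (34.3%) against 33.0%, and 14 (40.0%) were intergenic against 27.4%. Since distal peaks differ from promoter peaks genome-wide, the 26 distal peaks were also set beside all distal peaks, and their median fold enrichment was 9.89 against 7.17. The 95% interval of the former, 7.17 to 12.9, reaches the latter. Another high-confidence summit lay within 10 kb of 12 of the 35 (34.3%), against 49.2% of all peaks.

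The share of the 35 peaks with the Tcf/Lef core was 14.3% (6.26 to 29.4), and it was 10.2% over all high-confidence peaks. Over the whole peak, in place of 100 bp around the summit, the core stood in 11 of 35 (31.4%) against 15.1% of all peaks, with median widths of 649 and 484 bp. For the variant TTCAAAG the shares were 8.57% and 10.7%. Reversed without complement, the core GAAACTA was found in 0 of 35 peaks, where the interval reaches 9.89%, and in 2.40% of all peaks. Around the summit, each of these intervals covers the share over all peaks. The Runx core TGTGGTT stood at 10 of 35 peaks (28.6%, 16.3 to 45.1) against 15.5% of all peaks. It was found at 3 Tox peaks in addition to the Tox start-site peak, at 2 Tigit peaks and at 1 peak each of Pdcd1, Btla, Cd160 and Tox2. At promoters it stood at 4 of 9 peaks (44.4%, 18.9 to 73.3), those of Btla, Tigit, Cd160 and Tox, against 6.10% of all promoter peaks. The bases G and C made up 47.8, 42.8, 51.2 and 52.7% of these 4 summit windows, in that order. Over all promoter peaks the median was 62.2%, so the sets differ in base composition, and its part in the Runx share was not tested. At distal peaks the Runx shares were alike, 6 of 26 (23.1%) against 21.7%. The ETS core CGGAAGT was found at 2 peaks (5.71% against 6.93%), the AP-1 site TGACTCA at 2 (5.71% against 4.67%) and the NFAT core TGGAAAA at 3 (8.57% against 3.10%). The NFAT matches stood at 2 Tox peaks and at the strong Pdcd1 peak. All 7 motifs were searched on both strands, and no position can match both the core and the variant, which differ in the first base. A match is a description of the letters and not a measured site. The plot of motif shares sets these values side by side.

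**Figure D4:**
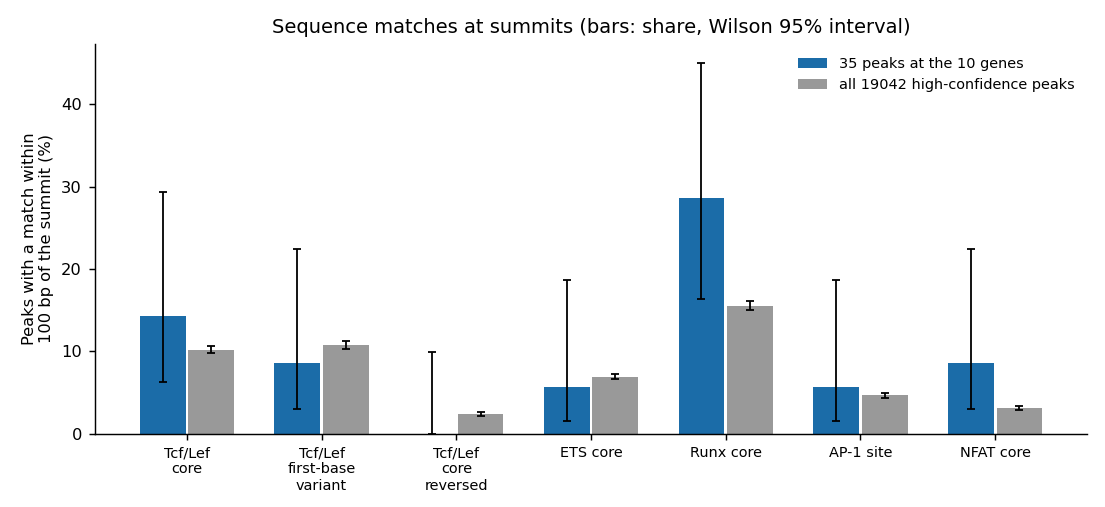
Percent of peaks with each of 7 motifs within 100 bp of the summit, for the 35 peaks with Wilson 95% intervals and for all 19042 high-confidence peaks. The Runx share is 28.6% against 15.5%, and the Tcf/Lef core share is 14.3% against 10.2%.

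Genes that act with these receptors were described in the same way. Of the 36 such genes that the annotation holds, 33 had a peak in the window and 18 had a peak within 1 kb of a start site, beside 66.5% and 32.8% of all genes. For 27 of the 36 the gene's own start site was the nearest to a peak, against 41.5% of all genes. Among ligands of the receptors 10 of 11 had a peak in the window, but a start-site peak was found for 1, Cd274, the gene of the PD-1 ligand. Among the activating counterparts Cd28, Icos, Cd27 and Cd226, 4 of 4 had a peak in the window and 3 at a start site, Cd226 having none there. Cd28, which shares ligands with Ctla4, had 10 peaks, and the strongest at Icos had a fold enrichment of 39.9. Among other inhibitory receptors 8 of 8 had a peak and 3 a start-site peak (Cd101, Cd96 and Cd5). Of 6 intracellular mediators, 5 had both, including Ptpn6, which encodes the phosphatase SHP-1, and Inpp5d, which encodes SHIP-1. For the NFAT and NR4A factors, which are known to act with or above Tox, 5 of 5 had a start-site peak, with 6 peaks at Nr4a3 and 8 at Nr4a1. Of the Tox relatives, Tox4 had 6 peaks, 1 or more at a start site, but its start site was the nearest for 0 high-confidence peaks. Tox3 had 0 peaks in its window.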

How the data were processed

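Tcf1 ChIP-seq was performed in naive CD8+ T cells, in 1 WT and 1 Tcf1-deficient library. Per the labels and the methods, the authors aligned paired-end reads to mm9 with Bowtie2 (version 2.2.5) and called peaks with MACS2 (version 2.1.1) with p under 1e-05 and at most 1 fragment kept at each position. FastQC was also listed in the submitters' processing notes. The deposited signal (pileup) was the WT coverage at the summit, in whole fragments and not scaled. The header of the file describes scaling of the larger library and no calculation of q, but the pileups are whole numbers that give the deposited p unscaled, and the q column is filled. The deposited fold enrichment was a ratio with a pseudocount of 1. The deposited −log10 p-value and −log10 q-value were Poisson values against the control, and for 36 of the 36 peaks a p recomputed from pileup and control level matched within 0.01. The deposited positions were 1-based. The control level was computed back as (pileup + 1)/fold enrichment − 1.

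Peaks were assigned to genes by summit with the GENCODE vM1 annotation of the same build. By rule, the peaks named were the strongest of each gene, those at its start sites, those with the Tcf/Lef core, and those nearest the fold minimum on each side; further peaks with values of their own were chosen after their values were seen, and the rest are given by count and range. The genes and lists were chosen with earlier results of these data known. The symbols Nectin2, Vsir and Adgre1 were not found in the annotation, while the older Pvrl2, 4632428N05Rik and Emr1 were. Other fold and q limits, window sizes, assignment rules and motif windows were tried. Counting scripts were tested on simulated data. Python 3.11.15, numpy 2.4.6, pandas 2.3.3, scipy 1.17.1 and matplotlib 3.10.9 were used.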

Additional observations from a re-analysis of the deposited data

Results flagged for a closer look

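The deposited peak at chr11:46226135-46226539, 42.2 kb upstream of Havcr2, was left out of the comparisons because its fold enrichment of 3.71 was under 4. Its WT pileup of 30 fragments (20.2 to 42.8, exact Poisson 95% interval) was above the control level of 7.35. The interval of its fold enrichment, 2.54 to 5.25, includes the limit. The peak holds the Tcf/Lef core outside the 100 bp around its summit.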

How the results depend on the processing

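Of 66 values recomputed under other settings, 58 stayed within the 95% interval of the reported value or, for counts, within 1.5 times of it, and 8 did not. The control level, which has no interval, is among the 8 for any shift. The window mattered most: with 10 kb on either side there were 20 peaks and a median of 1 a gene, and with 100 kb there were 61 and a median of 5, in place of 35 and 3. The share of peaks with the Tcf/Lef core was 31.4% when the whole peak was searched. Over all high-confidence peaks that share was 15.1%, with narrower peaks (median 484 against 649 bp). The control level came to 6.33 when the pseudocount was left out, in place of 5.42. The deposited fold enrichment includes that pseudocount, so 6.33 is not an alternative estimate of the level. At a fold minimum of 8, 9634 protein-coding genes had a peak in place of 14869. Within 10 kb, 8 of the 10 genes had a peak, against 48.7% of all protein-coding genes, Havcr2 and Cd244 having 0, and within 100 kb Havcr2 had 14. Counting only peaks nearest to the gene itself, an alternative chosen after seeing the data, the median strongest fold enrichment was 15.0 in place of 22.5. The strongest peak was the same for 10 of 10 genes by pileup or by q. Since 33 of the 35 peaks share the minimum control level, these measures order them alike, so this is not a separate check. Of 90 counts for single genes, 25 moved by more than 1.5 times. No paired analysis was possible because each group held 1 library and no test was run. Depth limits the weak peaks: 6 of the 36 deposited peaks stood less than 1 Poisson SD from the fold minimum.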

Other observations

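Between 50 and 100 kb from some of the genes lay further peaks nearest to the start sites of other genes. Ctla4 lies between Cd28 and Icos, and its 5 peaks in this range were nearest to Cd28 (3, fold enrichment up to 9.19) or Icos (2, up to 39.9). Cd244 had 4, the strongest nearest to Slamf7 with a fold enrichment of 14.0. Pdcd1, Tigit and Tox had 0 in this range.

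Among the 36 related genes, the highest fold enrichments were 79.8 near Inpp5d, 78.7 near Pdcd1lg2, a ligand gene of PD-1, and 52.7 near Cd96, a receptor that shares its ligand PVR with Tigit. Each is the highest value in the whole window and may belong to a peak nearer to another gene. These windows held 6, 8 and 9 peaks, while the start sites of the 3 genes were the nearest for 4, 4 and 2 high-confidence peaks. Cd5, whose product restrains T cell receptor signals, had 18 peaks in its window, while its start site was the nearest for 3 high-confidence peaks.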
